A study of Mus musculus with 12 samples.

Results

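The 38 genes described here drive cell division. They license and copy the genome, supply deoxynucleotides, carry cells from one phase of the cycle to the next, or build and check the mitotic spindle. They were taken by symbol from the gene column of the count table, which held 41079 genes. All 38 were found, and all 38 were among the 20771 genes with enough counts to be tested. By role, 9 genes act in origin licensing and as the replicative helicase, 4 at the replication fork and in nucleotide supply, 7 are cyclins, kinases and a transcription factor of G1, 9 are cyclins, kinases and regulators of G2 and mitosis, and 9 act in the spindle, the kinetochore and the mitotic chromosome.

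A dividing cell loads the MCM helicase onto replication origins in G1 and fires those origins once in S phase. Cyclins rise and fall through the cycle and switch their partner kinases on and off. Genes of S phase are turned on largely by E2F factors, and genes of G2 and mitosis by complexes that bind CHR and CCAAT elements and include the factors B-MYB and FOXM1. In the midgestation embryo most tissues divide fast, while cells that differentiate, such as young neurons, leave the cycle.

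RNA was sequenced from 12 single whole mouse embryos aged 10.0 to 11.0 days after fertilisation, all from crosses of parents that were both heterozygous for Mfsd12. By their genotype labels, 4 embryos were wild-type, 4 heterozygous and 4 knockout for Mfsd12, which encodes a lysosomal and melanosomal membrane protein needed for cysteine import. No other allele or treatment is named, the sources used here do not describe the disrupted allele, and a stage is not given for each embryo. Each title also starts with a number of no stated meaning. Wild-type 1 and 2, heterozygous 1 and knockout 3 had number 18, wild-type 3 and 4, heterozygous 4 and knockout 2 had number 4, heterozygous 2 and knockout 1 had number 14, heterozygous 3 had number 4.1b and knockout 4 had number 15. Replicate numbers follow the order of deposition within a genotype and pair nothing.

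Totals lay between 53132928 and 67977877 counts per embryo, of which the 38 genes held 0.891% to 1.15%. The smallest count of any of the 38 genes in any embryo was 1580, so counting error was small beside the spread between embryos. Values are CPM, counts scaled to a common TMM-adjusted total, unless given per kb of exon. Mfsd12 had 11.9 ± 3.23 CPM in wild-type embryos, 5.84 ± 2.56 CPM in heterozygous embryos and 2.97 ± 0.544 CPM in knockout embryos (SD, n = 4 each). The library labelled heterozygous 2, at 2.58 CPM, lay within the knockout range of 2.31 to 3.57 CPM, against its label. Ddx3y, which is Y-linked, exceeded 1 CPM in 3 wild-type, 3 knockout and 0 heterozygous embryos, so sex differed along with each comparison that involves heterozygous embryos. By title number it exceeded 1 CPM in 2 of 4 embryos of number 18 and 3 of 4 of number 4, so sex was uneven there too. Knockout 3 stood apart by its summed yolk sac endoderm markers (1375 CPM, against 40.1 to 173 CPM in the other 11 embryos) and hepatoblast markers (3684 CPM, against 10.9 to 614 CPM). Wild-type 1 stood apart by exon length. Over all genes tested, the median deviation from the 12-embryo mean was 0.33 (log2) in wild-type 1 for genes with under 2374 bp of exon. For those with over 4800 bp it was -0.29. These medians were -0.15 to 0.11 and -0.081 to 0.16 in the other 11 embryos.

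Per kb of exon, the levels of the 38 genes spanned from 13.1 ± 1.62 CPM per kb for E2f1 to 682 ± 122 CPM per kb for Cdk4 (mean ± SD over the 12 embryos). Pcna, the sliding clamp of DNA polymerases, came second with 290.1 ± 46.5 CPM per kb, and Top2a, the topoisomerase that untangles and compacts mitotic chromosomes, the third, had 193 ± 53.5 CPM per kb. Rrm2 and Rrm1, the subunits of ribonucleotide reductase, followed with 162 ± 32.0 CPM per kb and 130.1 ± 17.4 CPM per kb. These 2 values overlapped within 1 SD, as did those of Mcm5, Mcm7 and Mcm3, which came next with 123 ± 16.6 CPM per kb, 121 ± 18.2 CPM per kb and 117 ± 16.5 CPM per kb. At the low end, Cenpf, Cdc6 and E2f1 had 16.1 ± 5.62 CPM per kb, 14.9 ± 2.85 CPM per kb and 13.1 ± 1.62 CPM per kb, again with overlapping SDs.

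**Figure D1:**
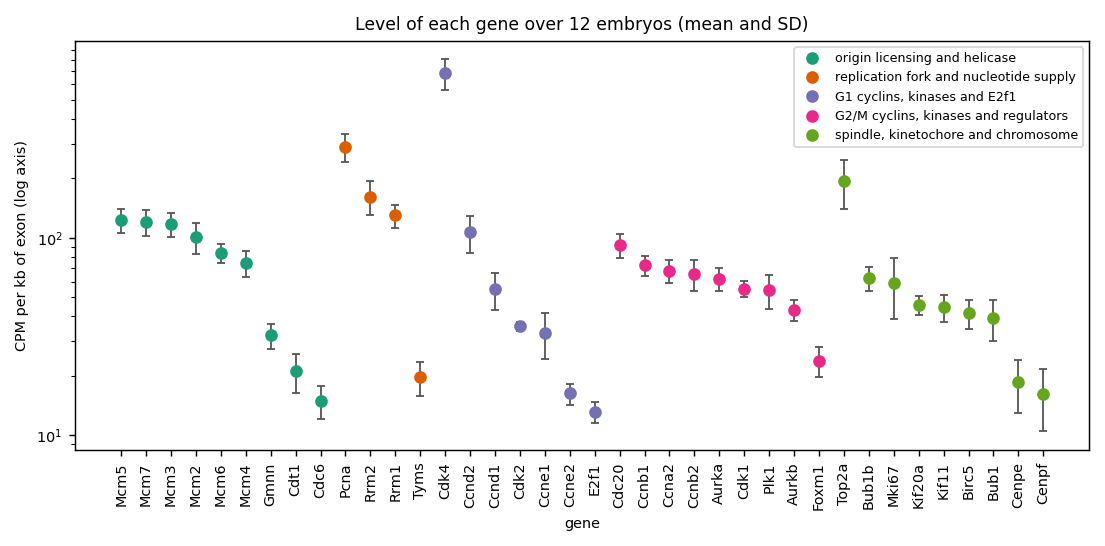
Mean level of each of the 38 genes over the 12 embryos, in CPM per kb of exon on a log axis, ordered by level within each role group, with bars for the SD. Cdk4 lies highest and E2f1 lowest, and in every role group the highest and lowest members differ by more than their SDs.

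Several of these levels carry reads of other genes, because strand was not used in counting. Of the exons of Ccnd1, 61.6% lie opposite exons of LTO1, of those of Kif20a 60.6% lie opposite Cdc23, and of those of Ccne2 55.9% lie opposite Ints8. Smaller shares were 11.2% for Ccna2 (Exosc9), 8.44% for Mcm7 (Ap4m1) and 8.34% for Aurka (Cstf1). The pseudogene Ccnb1-ps had 136 CPM, 80.8% of the 168 CPM of Ccnb1, so the level of Ccnb1 is uncertain where reads fit both. These limits apply to each value of those genes below.

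The licensing group contains the MCM genes, whose products form the helicase ring, their loaders Cdc6 and Cdt1, and geminin (Gmnn), which inhibits Cdt1. Gene positions are those of the count table, in the mouse build GRCm39. Mcm5 (chromosome 8, 75836096 to 75855067, plus strand) had 497, 392, 358 and 433 CPM in wild-type 1 to 4, 357, 445, 465 and 421 CPM in heterozygous 1 to 4, and 414, 558, 380.3 and 446 CPM in knockout 1 to 4. Mcm7 (chromosome 5, 138162845 to 138170675, minus strand) had 406, 339.7, 402 and 425 CPM in wild-type 1 to 4, 324, 419, 489 and 442 CPM in heterozygous 1 to 4, and 402, 532, 351 and 490.2 CPM in knockout 1 to 4. Both were highest in knockout 2 and among the lowest in heterozygous 1 and knockout 3. Mcm2 (chromosome 6, 88860456 to 88875762, minus strand), also highest in knockout 2 and lowest in heterozygous 1, had 325, 302, 313 and 343 CPM in wild-type 1 to 4, 263, 392, 412 and 327 CPM in heterozygous 1 to 4, and 294, 475, 291 and 332 CPM in knockout 1 to 4. Cdt1 (chromosome 8, 123294754 to 123299869, plus strand) had 44.4, 43.1, 35.6 and 43.2 CPM in wild-type 1 to 4, 44.2, 53.0, 46.3 and 37.0 CPM in heterozygous 1 to 4, and 42.5, 71.8, 36.1 and 58.0 CPM in knockout 1 to 4. Its 4 wild-type values lay within 35.6 to 44.4 CPM, and the highest values were those of knockout 2 and knockout 4. Gmnn, Mcm3, Mcm4, Mcm6 and Cdc6 varied between their lowest and highest embryo by 1.59-fold, 1.59-fold, 1.67-fold, 1.41-fold and 1.83-fold.

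Of the genes of the fork and of nucleotide supply, Pcna (chromosome 2, 132091206 to 132095100, minus strand) had 382, 312, 333 and 339 CPM in wild-type 1 to 4, 292, 341, 327 and 377 CPM in heterozygous 1 to 4, and 371, 461, 358 and 492 CPM in knockout 1 to 4. The highest values were those of knockout 4 and knockout 2, and the lowest that of heterozygous 1. Rrm2 (chromosome 12, 24758253 to 24764145, plus strand), the regulated subunit of ribonucleotide reductase, had 329, 278, 357 and 368 CPM in wild-type 1 to 4, 279, 309.5, 473 and 365 CPM in heterozygous 1 to 4, and 338, 469, 263 and 409.6 CPM in knockout 1 to 4. Tyms (chromosome 5, 30243544 to 30279261, minus strand), the thymidylate synthase, had 221, 152, 126 and 140.4 CPM in wild-type 1 to 4, 152, 104, 124 and 153 CPM in heterozygous 1 to 4, and 133, 162, 143 and 147 CPM in knockout 1 to 4. Wild-type 1 held the highest value of Tyms and the library labelled heterozygous 2 the lowest, and the other 10 embryos lay within 124 to 162 CPM.

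In G1, D-type cyclins with Cdk4 and E-type cyclins with Cdk2 release E2F factors from the retinoblastoma protein. Cdk4 (chromosome 10, 126899404 to 126903157, plus strand) had 1471, 1012, 802 and 889 CPM in wild-type 1 to 4, 976, 921, 972 and 916 CPM in heterozygous 1 to 4, and 864, 1047, 879.7 and 869 CPM in knockout 1 to 4. Ccnd2 (chromosome 6, 127102125 to 127131913, minus strand), cyclin D2, had 609.7, 822, 1039.9 and 848 CPM in wild-type 1 to 4, 741, 523, 1061 and 936 CPM in heterozygous 1 to 4, and 1090.5, 1107, 899 and 862 CPM in knockout 1 to 4. Ccne2 (chromosome 4, 11190489 to 11204781, plus strand), cyclin E2, had 50.3, 45.5, 53.8 and 45.2 CPM in wild-type 1 to 4, 49.3, 37.4, 46.2 and 53.9 CPM in heterozygous 1 to 4, and 58.4, 51.7, 55.5 and 58.4 CPM in knockout 1 to 4. Wild-type 1 was highest for Cdk4 and low for Ccnd2, and the library labelled heterozygous 2 was lowest for Ccnd2 and Ccne2. The same library was also lowest for Ccnd1 (101 CPM, against 190.2 to 297 CPM in the other 11 embryos) and for Ccne1 (33.4 CPM, against 54.8 to 103 CPM). Cdk2 was the most even gene of the 38, with a highest value only 1.19-fold above its lowest.

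In G2 and mitosis, Cdk1 with A- and B-type cyclins starts mitosis, Plk1 and the Aurora kinases steer it, and Cdc20 activates the ligase that ends it. Cdc20 (chromosome 4, 118290098 to 118294540, minus strand) had 214, 154, 146 and 162 CPM in wild-type 1 to 4, 157, 143, 186 and 165 CPM in heterozygous 1 to 4, and 149.6, 198, 149.6 and 144 CPM in knockout 1 to 4. Ccnb1 (chromosome 13, 100915247 to 100922994, minus strand), cyclin B1, had 147, 136, 177 and 174 CPM in wild-type 1 to 4, 139, 163, 180.1 and 187 CPM in heterozygous 1 to 4, and 172, 182, 164 and 195 CPM in knockout 1 to 4. Ccnb2 (chromosome 9, 70314971 to 70328836, minus strand), cyclin B2, had 145, 104, 90.3 and 90.9 CPM in wild-type 1 to 4, 105, 119.7, 108 and 104 CPM in heterozygous 1 to 4, and 93.6, 90.1, 93.7 and 71.8 CPM in knockout 1 to 4. Cdc20 and Ccnb2 were highest in wild-type 1, while Ccnb1 was low there and lowest in wild-type 2. Foxm1 (chromosome 6, 128339957 to 128352849, plus strand), a transcription factor of G2 and mitosis genes, had 67.9, 87.5, 119 and 125 CPM in wild-type 1 to 4, 86.7, 95.9, 129 and 102 CPM in heterozygous 1 to 4, and 113, 122, 96.7 and 104 CPM in knockout 1 to 4. Its lowest values were those of wild-type 1, heterozygous 1 and wild-type 2, all of title number 18.

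Among genes of the spindle and chromosomes, Top2a (chromosome 11, 98883773 to 98915037, minus strand) had 685, 738, 1162 and 966 CPM in wild-type 1 to 4, 714, 1744, 1069 and 1068 CPM in heterozygous 1 to 4, and 1133, 909, 1000.1 and 965 CPM in knockout 1 to 4. Bub1b (chromosome 2, 118428684 to 118472073, plus strand), which encodes the checkpoint protein BubR1, had 212, 189, 254 and 253 CPM in wild-type 1 to 4, 182, 224, 287 and 232 CPM in heterozygous 1 to 4, and 205, 274, 219 and 236 CPM in knockout 1 to 4. Bub1 (chromosome 2, 127642117 to 127673790, minus strand), a checkpoint kinase, had 131, 116, 194 and 171 CPM in wild-type 1 to 4, 122, 266, 176 and 183 CPM in heterozygous 1 to 4, and 170.1, 159, 167 and 195 CPM in knockout 1 to 4. Top2a and Bub1 were highest in the library labelled heterozygous 2, and all 3 genes lay below their 12-embryo mean in wild-type 1, wild-type 2 and heterozygous 1. Mki67 (chromosome 7, 135291513 to 135318286, minus strand), a coat protein of mitotic chromosomes used as a proliferation marker, had 424, 435, 986 and 649 CPM in wild-type 1 to 4, 408, 680.4, 492 and 935 CPM in heterozygous 1 to 4, and 623, 323, 658 and 631 CPM in knockout 1 to 4. Cenpf (chromosome 1, 189372803 to 189420302, minus strand), a large kinetochore protein, had 96.5, 113, 289.6 and 185 CPM in wild-type 1 to 4, 121, 187, 165 and 235 CPM in heterozygous 1 to 4, and 215, 113, 203 and 272 CPM in knockout 1 to 4. Both genes reached their highest value in wild-type 3 and were low in wild-type 1, wild-type 2, heterozygous 1 and knockout 2. Knockout 2 thus held the lowest Mki67 of all 12 embryos and the highest Mcm2, Mcm5 and Mcm7.

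**Figure D2:**
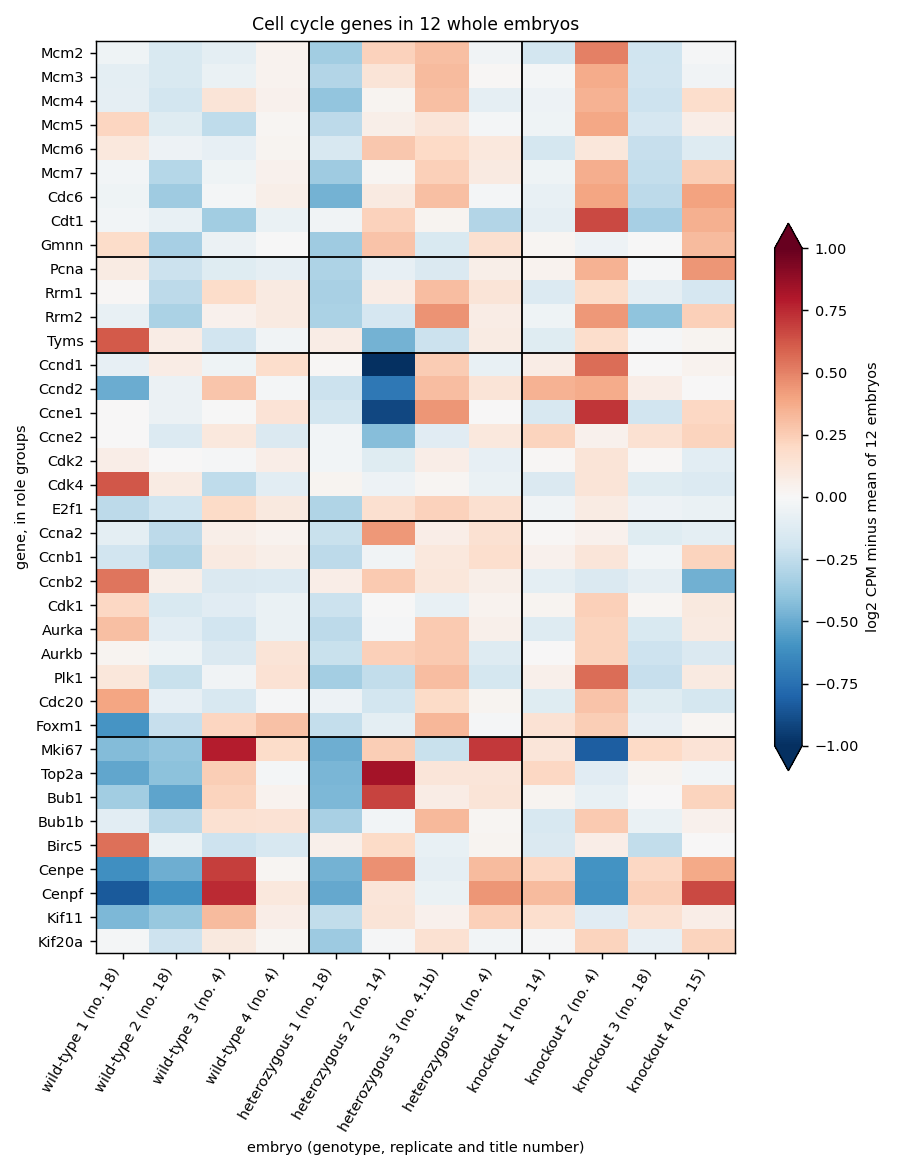
Log2 CPM (no prior count) of each of the 38 genes in each embryo, minus the gene's mean over the 12 embryos, with rows in role groups and columns by genotype. The licensing genes are mostly red in knockout 2 and heterozygous 3 and blue in heterozygous 1 and knockout 3, while Mki67, Cenpe and Cenpf are blue in wild-type 1, wild-type 2, heterozygous 1 and knockout 2.

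Most of the 38 genes varied little between embryos of 1 genotype. The SD of their log2 CPM within a genotype had a median of 0.23, against 0.40 over all genes tested. In CPM per kb the 38 genes lay between the 77.21 and 99.66 percentiles of all genes tested, and no set of matched level was compared. It was smallest for Cdk2 (0.076) and Cdk1 (0.13) and largest for Cenpf (0.57), Mki67 (0.53) and Cenpe (0.49), whose exons are among the longest of the set. The median deviation of the 10 genes with the longest exons was -0.47 in wild-type 1, -0.36 in wild-type 2 and -0.35 in heterozygous 1, and 0.0026 to 0.26 in the other 9 embryos. That of the 10 with the shortest exons was 0.095, -0.078 and -0.20 in the same 3 embryos. Across embryos, the number of genes above their 12-embryo mean ran from 5 of 38 in wild-type 2 and in heterozygous 1 to 30 of 38 in knockout 2. The median deviation of the 6 MCM genes was highest in knockout 2 (0.37) and heterozygous 3 (0.27) and lowest in heterozygous 1 (-0.32) and knockout 3 (-0.21). In whole-embryo RNA, fewer dividing cells and less of these RNAs per dividing cell cannot be told apart.

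The promoters of 5 of these genes are shown because they carry the sequence elements by which S phase and mitosis genes are known to be switched on together. The sequences are from RefSeq, in the mouse build GRCm38.p6, and cover the 250 bases before the annotated start, written 5′ to 3′ on the strand of the gene. Their positions are in that older build and cannot be set beside the gene positions given above, which are in GRCm39. Capitals mark matches, on either strand, to an E2F element (TTTCCCGC, TTTCGCGC, TTTGCCGC or TTTGGCGC), to a CHR element (TTTGAA or TTCGAA) and to a CCAAT box (CCAAT). An E2F match can overlap one on the other strand, as in Mcm5 and Mcm6, where such a pair prints as 1 longer run of capitals.
Mcm5 (chr8:75109259-75109508, plus strand): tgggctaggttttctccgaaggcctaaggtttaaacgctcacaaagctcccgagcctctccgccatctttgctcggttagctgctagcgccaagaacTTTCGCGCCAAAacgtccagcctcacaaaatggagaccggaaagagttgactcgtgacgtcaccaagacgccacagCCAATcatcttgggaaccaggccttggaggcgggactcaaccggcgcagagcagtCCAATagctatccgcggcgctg
Mcm6 (chr1:128359706-128359955, minus strand): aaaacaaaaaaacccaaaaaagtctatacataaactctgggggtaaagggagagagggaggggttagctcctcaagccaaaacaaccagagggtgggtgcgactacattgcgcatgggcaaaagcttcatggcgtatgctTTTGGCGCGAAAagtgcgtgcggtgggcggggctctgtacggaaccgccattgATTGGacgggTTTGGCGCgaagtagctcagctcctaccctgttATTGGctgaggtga
Cdk1 (chr10:69352913-69353162, minus strand): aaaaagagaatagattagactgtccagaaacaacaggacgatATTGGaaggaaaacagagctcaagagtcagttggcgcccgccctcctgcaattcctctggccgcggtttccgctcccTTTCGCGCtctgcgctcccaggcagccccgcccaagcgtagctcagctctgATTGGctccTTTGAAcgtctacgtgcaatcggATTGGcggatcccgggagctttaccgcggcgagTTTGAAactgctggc
Top2a (chr11:99024190-99024439, minus strand): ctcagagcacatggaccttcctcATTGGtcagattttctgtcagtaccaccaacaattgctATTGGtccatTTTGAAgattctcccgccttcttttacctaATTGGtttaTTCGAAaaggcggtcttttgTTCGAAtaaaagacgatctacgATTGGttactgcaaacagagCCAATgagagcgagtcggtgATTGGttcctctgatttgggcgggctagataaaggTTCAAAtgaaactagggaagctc
Bub1b (chr2:118597961-118598210, plus strand): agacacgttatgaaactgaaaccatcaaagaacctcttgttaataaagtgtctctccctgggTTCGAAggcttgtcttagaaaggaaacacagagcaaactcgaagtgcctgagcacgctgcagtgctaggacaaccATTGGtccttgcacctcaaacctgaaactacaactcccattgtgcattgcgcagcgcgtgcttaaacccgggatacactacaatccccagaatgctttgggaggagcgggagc
Mcm5 and Mcm6, both of the helicase ring, held 2 and 3 E2F matches, 2 CCAAT boxes each and no CHR match. Cdk1, the mitotic kinase, held 1 E2F, 2 CHR and 3 CCAAT matches, Top2a 4 CHR and 6 CCAAT matches, and Bub1b 1 CHR and 1 CCAAT match. Promoter sequences of 29 of the 38 genes were matched. Mcm4, Gmnn, Ccnd1, Ccnd2, Ccne2, Ccna2, Aurkb, Foxm1 and Kif20a were not matched, so a check over the whole set is void and the shares describe the 29 genes. E2F matches were found in 6 of 29 (20.7%), against 1.86% of 32851 promoters of the same length, and the 6 were 4 licensing genes, Cdk2 and Cdk1. CHR matches were found in 9 of 29 (31.0%), against 17.1%, and the 9 were 2 licensing, 3 G2 and mitosis and 4 spindle genes. CCAAT boxes were found in 22 of 29 (75.9%), against 33.8%, and in all 6 matched G2 and mitosis genes. A match shows the letters, not the binding of a factor.

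Between Mfsd12 knockout and wild-type embryos, none of the 38 genes passed the test. In edgeR's quasi-likelihood test with Benjamini-Hochberg adjustment over all genes, 0 of 38 were called at an adjusted p under 0.05, as were 0 of all 20771 genes tested (0.0%). At an unadjusted p under 0.05, 0 of 38 were found, against 8.33% of all genes. DESeq2 and limma voom also called 0 of the 38. The estimate was higher in knockout embryos for 28 genes and lower for 10, where 51.3% of all genes had a higher estimate, and the median log2 fold change was 0.12, against 0.011 over all genes.

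The members with the smallest p were Pcna, Ccnb2 and Cdt1, whose values by embryo are given above. Mean levels of Pcna were 421 ± 66.1 CPM (knockout) and 341 ± 29.5 CPM (wild-type, SD, n = 4), a log2 fold change of 0.30 ± 0.14 SE (edgeR adjusted p = 0.610). Its groups overlapped, since knockout 3 at 358 CPM and knockout 1 at 371 CPM lay below wild-type 1 at 382 CPM. Ccnb2 had 87.3 ± 10.5 against 107 ± 25.5 CPM, a log2 fold change of -0.30 ± 0.16 SE (edgeR adjusted p = 0.630), and the wild-type mean rested in part on the 145 CPM of wild-type 1. Cdt1 had 52.1 ± 16 against 41.6 ± 4.02 CPM, a log2 fold change of 0.32 ± 0.20 SE (edgeR adjusted p = 0.669), with knockout 1 and knockout 3 inside the wild-type range. In 0 of the 38 genes did all 4 knockout embryos lie above all 4 wild-type embryos, and in 0 below them, against 1.6% and 1.82% of all genes.

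By role, 8 of 9 licensing genes, 2 of 4 fork and nucleotide genes, 5 of 7 G1 genes, 6 of 9 G2 and mitosis genes and 7 of 9 spindle genes had a higher estimate in knockout embryos. The group medians were 0.12, 0.045, 0.15, 0.021 and 0.12 on the log2 scale. Among the licensing genes Mcm6 was the exception, at -0.10 ± 0.13 SE, and the largest estimate after Cdt1 was that of Cdc6, at 0.23 ± 0.19 SE. For G1, Ccnd2 was at 0.25 ± 0.22 SE and Cdk4 at -0.19 ± 0.18 SE. The proliferation marker Mki67 was at -0.16 ± 0.32 SE, and Top2a at 0.17 ± 0.25 SE. Cdk1 and Cdk2, the genes with the smallest spread, were at 0.12 ± 0.12 SE and -0.020 ± 0.11 SE.

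The precision was high enough to bound these differences. All 38 of the 95% confidence intervals lay between a log2 fold change of -0.86, the lower end for Mki67, and 0.96, the upper end for Cenpf, and therefore within a 2-fold change in either direction. The intervals of 11776 of the 20771 genes tested, which were not matched for level, lay within that 2-fold range. For Cdk2 the interval ran from -0.25 to 0.21, and for Ccna2 from -0.29 to 0.33.

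The excess of higher estimates rested on knockout 2. Without it the median log2 fold change of the 38 genes was 0.0013 in place of 0.12, without wild-type 2 it was 0.073 and without knockout 3 0.18. With title number as a block it was 0.055, and in limma voom with sample weights 0.028. Within title number 4, where knockout 2 is the only knockout embryo, 27 of 38 genes lay higher than the mean of the 2 wild-type embryos, with a median log2 difference of 0.23. Within number 18, which holds knockout 3, 18 of 38 lay higher, with a median of -0.015. Mcm2 differed by 0.54 within number 4 and -0.10 within number 18, Cdt1 by 0.87 and -0.28, and Mki67 by -1.31 and 0.62. These within-number differences come from 1 knockout embryo each and have no test.

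**Figure D3:**
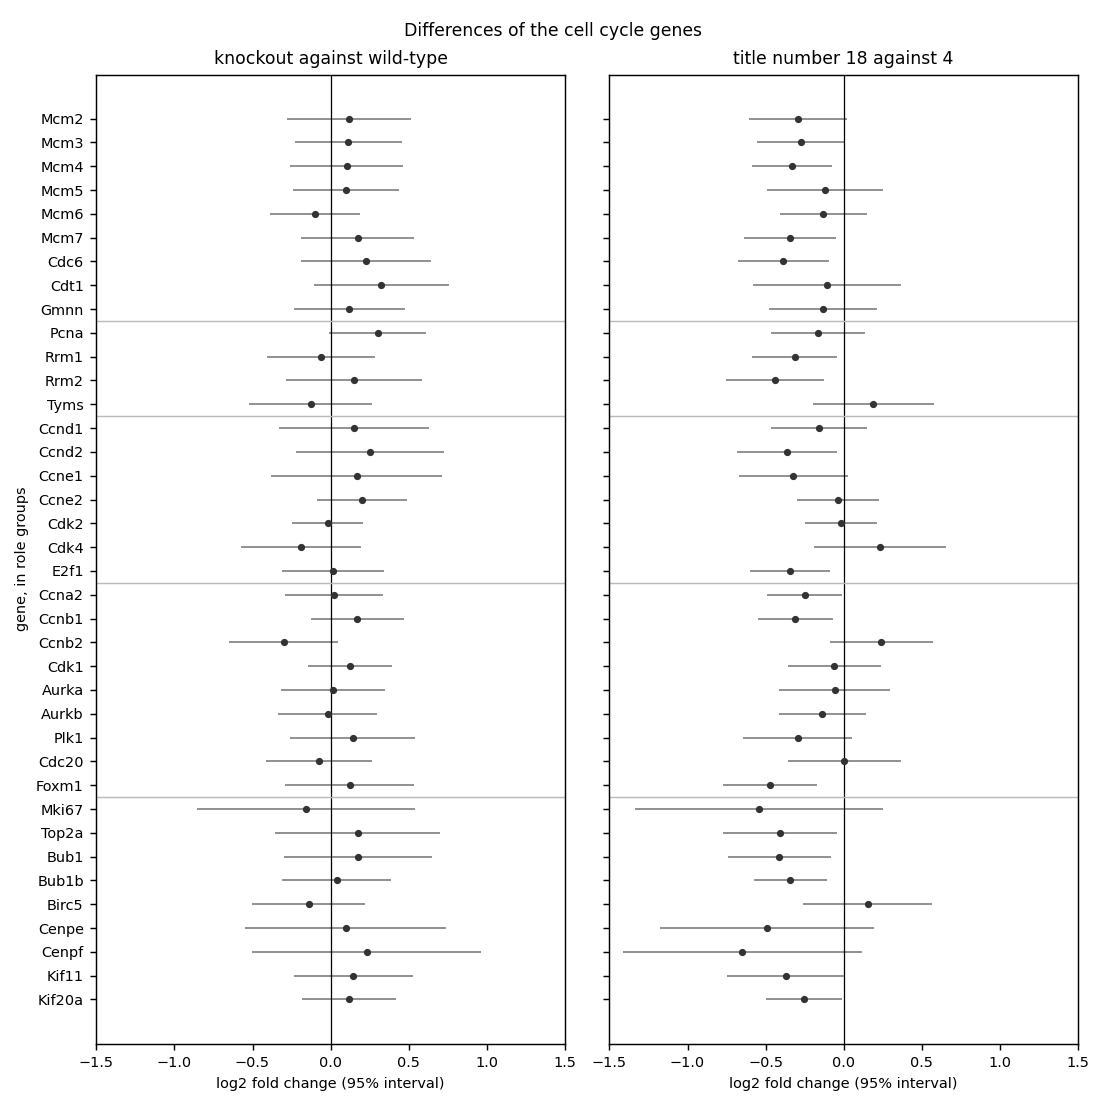
Log2 fold change of each of the 38 genes with its 95% confidence interval from edgeR, for knockout against wild-type embryos and for title number 18 against title number 4, both panels on the same axis from -1.5 to 1.5. On the left every interval lies between -0.86 and 0.96 and includes 0, while on the right 33 of 38 points lie below 0.

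Against heterozygous embryos, knockout embryos again differed little in these genes. Of the 38 genes, 0 were called (0.0% of all genes tested), 22 had a higher (all genes 49.9%) and 16 a lower estimate, and the median log2 fold change was 0.053, against -0.00055 over all genes. At an unadjusted p under 0.05, 1 gene was found, against 7.4% of all genes. This was Pcna, with 421 ± 66.1 CPM in knockout and 334 ± 35.0 CPM in heterozygous embryos, a log2 fold change of 0.33 ± 0.14 SE (edgeR adjusted p = 0.659). Ccnb2 was the only gene whose groups did not overlap, with 71.8 to 93.7 CPM in knockout and 104 to 119.7 CPM in heterozygous embryos, a log2 fold change of -0.32 ± 0.16 SE (edgeR adjusted p = 0.692). Over all genes, 1.93% lay lower in all 4 knockout than in all 4 heterozygous embryos. Ccne2 had 56.0 ± 3.19 against 46.7 ± 6.96 CPM, a log2 fold change of 0.26 ± 0.13 SE (edgeR adjusted p = 0.692). The 7 G1 genes had the largest median, 0.26, and the library labelled heterozygous 2 was lowest in Ccnd1, Ccnd2, Ccne1 and Ccne2. Without that library, 25 of the 38 genes had a higher and 13 a lower estimate, with a median over all genes of 0.017. Without single embryos the median of the 38 genes lay between -0.017 (without heterozygous 1) and 0.11 (without knockout 3), and it was 0.0031 without knockout 2, 0.028 without knockout 4, 0.097 without heterozygous 3 and 0.091 without heterozygous 4. It was -0.038 with Xist, a transcript of female cells, as a covariate, -0.011 in limma voom and 0.11 with title number as a block. With that block 27 of the 38 genes had a higher and 11 a lower estimate. At an unadjusted p under 0.05 in edgeR, 4 were then higher and 0 lower, and the share of all genes is not given. Higher and lower estimates were 29 and 9 without the libraries labelled heterozygous 2 and knockout 3. They were 15 and 23 with Xist and 18 and 20 in limma voom.

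Heterozygous and wild-type embryos were also close. Of the 38 genes, 0 were called (0.0% of all genes tested) and 0 were found at an unadjusted p under 0.05, against 1.01% of all genes. The estimate was higher in heterozygous embryos for 25 genes (all genes 48.4%) and lower for 13, with a median of 0.037, against -0.0094 over all genes. Top2a had 1149 ± 431 CPM in heterozygous and 887 ± 219.8 CPM in wild-type embryos, a log2 fold change of 0.37 ± 0.25 SE (edgeR adjusted p = 0.999999). Its heterozygous mean rested in part on the 1744 CPM of the library labelled heterozygous 2, as did that of Bub1, which had 187 ± 59.4 against 153 ± 35.9 CPM (0.29 ± 0.22 SE). Tyms had 133 ± 23.5 against 159.6 ± 41.9 CPM, a log2 fold change of -0.26 ± 0.18 SE (edgeR adjusted p = 0.999999), with wild-type 1 at 221 CPM. The sign of the median followed single embryos and settings. It was -0.030 without wild-type 2, -0.027 without heterozygous 3, 0.12 without heterozygous 1, 0.015 without heterozygous 4, 0.066 without wild-type 3 and 0.068 without wild-type 4. It was 0.17 with Xist as a covariate, -0.023 with title number as a block and -0.0078 with library totals in place of TMM. Without the library labelled heterozygous 2, 23 of the 38 genes had a higher and 15 a lower estimate, with a median over all genes of -0.0083.

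The 3 genotype comparisons share embryos, so their values are not independent of each other.

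Other genes of division, taken from 4 lists of related genes, were compared with the 38. In knockout against wild-type embryos 0 genes of any of the 4 lists passed the adjusted test. Of 40 further replication genes, 29 had a higher estimate (median 0.050), led by the origin recognition gene Orc1 at 0.39 ± 0.21 SE. The polymerase alpha gene Pola1 and the initiation factor Mcm10 were at 0.30 ± 0.20 SE and 0.28 ± 0.20 SE. Of 42 further mitosis genes, 27 had a higher estimate (median 0.051). Pttg1, the securin that guards sister chromatids, and the phosphatase gene Cdc25b had an unadjusted p under 0.05 with lower estimates (-0.43 ± 0.19 SE and -0.33 ± 0.15 SE), and the checkpoint gene Mad2l1 was at 0.29 ± 0.14 SE.

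Larger estimates stood among regulators outside the 38 genes. Of 20 cell cycle brakes that were measured well enough to be tested, of 21 listed, 14 had a lower estimate in knockout embryos, with a median log2 fold change of -0.23. The Cdk inhibitor p18 gene Cdkn2c had 1.87 ± 0.825 CPM in knockout against 4.81 ± 2.51 CPM in wild-type embryos, a log2 fold change of -1.36 ± 0.45 SE (edgeR adjusted p = 0.537). The Cdk inhibitor p57 gene Cdkn1c had 179.8 ± 48.6 CPM in knockout against 319.8 ± 152 CPM in wild-type embryos, a log2 fold change of -0.83 ± 0.35 SE (edgeR adjusted p = 0.587). The repressor E2F gene E2f5 had 52.7 ± 9.38 CPM in knockout against 39.4 ± 6.21 CPM in wild-type embryos, a log2 fold change of 0.42 ± 0.17 SE (edgeR adjusted p = 0.579). Of 13 further genes of G1 and S phase entry, 11 had a higher estimate, with a median of 0.10. The transcription factor gene Mycn had 97.8 ± 27.7 CPM in knockout against 49.6 ± 12.8 CPM in wild-type embryos, a log2 fold change of 0.98 ± 0.26 SE (edgeR adjusted p = 0.537). The kinase gene Cdk6 had 69.2 ± 15.1 CPM in knockout against 36.6 ± 14 CPM in wild-type embryos, a log2 fold change of 0.92 ± 0.27 SE (edgeR adjusted p = 0.537). Myc, a relative of Mycn, had 40.6 ± 18.6 CPM in knockout against 24.2 ± 4.14 CPM in wild-type embryos, a log2 fold change of 0.75 ± 0.34 SE (edgeR adjusted p = 0.598). In these 6 genes the knockout and wild-type embryos overlapped, and none passed the adjusted test. Among the 20 brakes, 1 lay higher in every knockout than in every wild-type embryo, against 1.6% of all genes. Of the 13 entry genes, 1 lay lower in every knockout embryo, against 1.82%.

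Of the markers of other cell types, 0 passed the adjusted test in any genotype comparison. In knockout against wild-type embryos, at an unadjusted p under 0.05, 4.08% of all genes were lower and 4.25% higher. The 10 neuronal markers all had a lower estimate in knockout embryos, 7 of them at an unadjusted p under 0.05, and summed to 171 to 837 CPM against 767 to 1242 CPM. The 10 erythroid markers all had a lower estimate too, 9 of them at that p, with 4613 to 16770.4 against 15753 to 73920.3 CPM. The 8 yolk sac endoderm markers all had a higher estimate, 7 of them at that p, with 49.7 to 1375 against 46.2 to 92.6 CPM. Of the 8 hepatoblast markers 7 had a higher estimate, 3 of them at that p, with 10.9 to 3684 against 22.1 to 124 CPM. The highest sums of both lists, 1375 and 3684 CPM, were those of knockout 3 alone. Knockout 1, 2 and 4 had 49.7, 52.4 and 102 CPM of yolk sac endoderm markers and 42.8, 58.4 and 10.9 CPM of hepatoblast markers. The 8 neural progenitor markers had 3 higher and 5 lower estimates, 0 at that p, with 392 to 728 against 670.3 to 907 CPM. The 8 heart muscle markers had 5 higher and 3 lower estimates, 1 of the lower at that p, with 550.0 to 1246 against 828 to 1144 CPM. In heterozygous against wild-type embryos 0 markers of any list had an unadjusted p under 0.05. No gene of these lists was at 0 in every embryo of a genotype. The part of these cell types in the levels of the 38 genes was not tested.

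More of the 38 genes had a small p between title numbers than between genotypes. Numbers 4 and 18 each occurred with 1 knockout, 1 heterozygous and 2 wild-type embryos, so they were compared in these 8 embryos with genotype as a term. Of the 38 genes, 33 had a lower estimate in number 18 (all genes 47.3%) and 5 a higher one (Tyms, Cdk4, Ccnb2, Cdc20 and Birc5), with a median log2 fold change of -0.28, against 0.031 over all genes. Each of those 5 genes had its highest value of all embryos in wild-type 1, which has number 18. Without wild-type 1, 3 of the 38 genes had a higher estimate. In edgeR 0 of 38 passed the adjusted test, where 7.85% of 21492 genes did. At an unadjusted p under 0.05, 15 of 38 were lower and 0 higher, where 13.3% of all genes were lower and 15.6% higher. In 10 genes every embryo of number 18 lay below every embryo of number 4, as in 9.76% of all genes.

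Foxm1, Bub1b and Rrm2 had the smallest p. Foxm1 had 84.7 ± 12.1 CPM in number 18 and 117 ± 10.5 CPM in number 4 (SD, n = 4), a log2 fold change of -0.47 ± 0.13 SE (edgeR adjusted p = 0.0622). Bub1b had 201 ± 17.5 against 253 ± 17.1 CPM, a log2 fold change of -0.34 ± 0.10 SE (edgeR adjusted p = 0.0753). Rrm2 had 287 ± 28.9 against 390.0 ± 53.2 CPM, a log2 fold change of -0.44 ± 0.14 SE (edgeR adjusted p = 0.0793). In all 3 genes the groups were apart, with Foxm1 at 67.9 to 96.7 CPM in number 18 and 102 to 125 CPM in number 4. The other genes with groups apart were Mcm3, Mcm4 and Cdc6 of licensing, Rrm1, E2f1, and the cyclins Ccna2 and Ccnb1. E2f1, a transcription factor of S phase genes, lay at 32.8 to 38.9 CPM in number 18 and 42.7 to 46.2 CPM in number 4, and Rrm1 at 412 to 519 and 549.7 to 586 CPM. Cdc6 lay at 53.1 to 71.3 and 72.4 to 96.9 CPM, and Ccnb1 at 136 to 164 and 174 to 187 CPM.

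**Figure D4:**
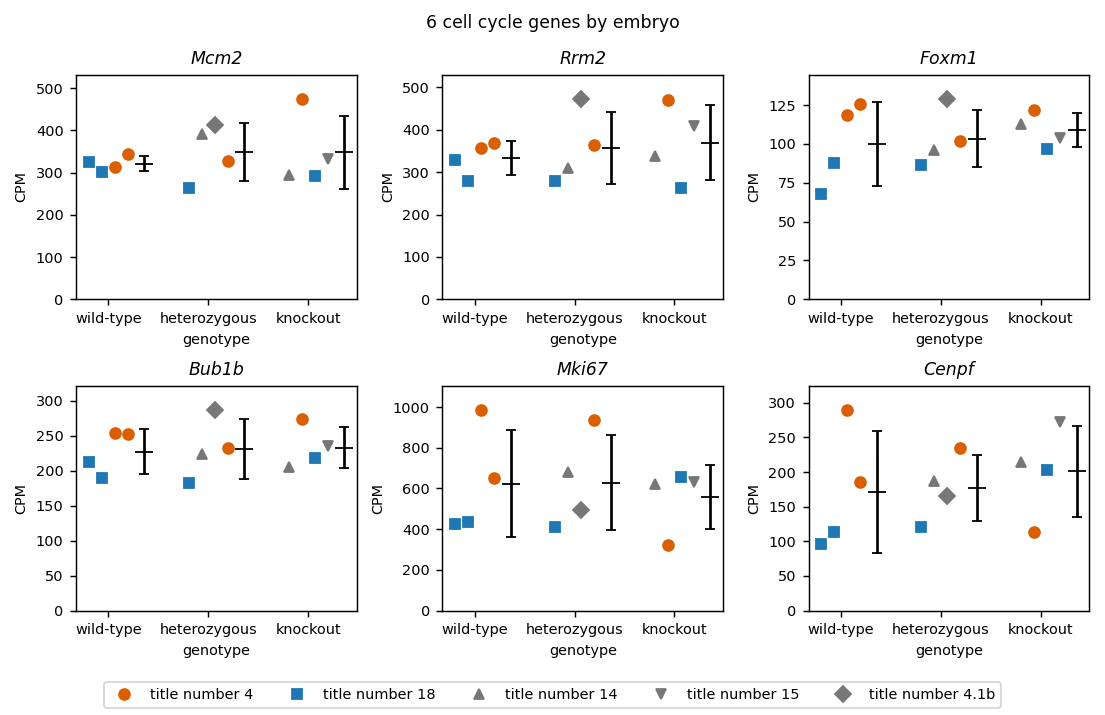
CPM of Mcm2, Rrm2, Foxm1, Bub1b, Mki67 and Cenpf in each embryo by genotype, with symbols for the title number and, beside each genotype, the mean with bars for the SD (n = 4), on axes that start at 0. Foxm1, Rrm2 and Bub1b lie lower in every number 18 embryo (squares) than in every number 4 embryo (circles), while Mki67 and Cenpf follow this order in wild-type and heterozygous but not in knockout embryos.

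All role groups had a negative median in this comparison. It was -0.28 for licensing, -0.24 for fork and nucleotide genes, -0.16 for G1, -0.14 for G2 and mitosis and -0.41 for spindle genes. All 9 licensing genes had a lower estimate, from -0.39 for Cdc6 to -0.11 for Cdt1. The spindle genes Cenpf, Mki67 and Cenpe had the largest estimates, at -0.65 ± 0.34 SE, -0.54 ± 0.35 SE and -0.49 ± 0.30 SE, and also the widest errors. Birc5, which encodes survivin of the chromosomal passenger complex, was at 0.15 ± 0.18 SE. Cdk2, Ccne2, Cdk1 and Aurka lay near 0, between -0.060 and -0.017.

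The direction was shared by the genotypes for part of the genes. The median log2 difference of number 18 minus number 4 was -0.11 in wild-type, -0.31 in heterozygous and -0.31 in knockout embryos, and 16 genes were lower in all 3. Bub1b differed by -0.34, -0.35 and -0.32, and Rrm1 by -0.26, -0.45 and -0.28. Mki67 differed by -0.90 and -1.19 in wild-type and heterozygous embryos but by 1.03 in knockout embryos, and Cenpf by -1.15, -0.95 and 0.84. Whether the title number difference varied between genotypes was tested by their interaction, a test added after seeing the data. In that interaction test 0 of 38 passed the adjusted threshold (smallest adjusted p = 0.235 in edgeR, for Mki67), against 23 of 21492 genes (0.107%). At an unadjusted p under 0.05, 6 of the 38 were found, against 10.4% of all genes, namely Mki67, Cenpf, Cenpe, Cdt1, Kif11 and Ccne1. The heterozygous and knockout values of each rest on 1 embryo per number. Within this test, only the wild-type embryos therefore gave a spread between replicates.

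Single embryos also moved this comparison. Without knockout 2 or knockout 3, the median was -0.18 in both cases and 8 of the 38 genes passed the adjusted test, where 16.6% and 17.2% of all genes did. Without wild-type 1 it was -0.31 and 5 passed, where 7.18% of all genes did. Without heterozygous 1 or heterozygous 4, 3 genes were lower at an unadjusted p under 0.05 in place of 15, against 9.08% and 8.97% of all genes. Without wild-type 2 these were 7, against 10.3%, and without wild-type 4 they were 8, against 8.64%. With Xist as a covariate 32 of the 38 genes had a lower estimate, 4 of them at an unadjusted p under 0.05 in place of 15. DESeq2 called 5 of the 38, and 18.6% of the genes it gave an adjusted p. In limma voom with sample weights 20 of the 38 and 34.1% of all genes were called, and with no count filter 1 of the 38 and 8.1%. Number 18 holds wild-type 1, which stood apart by exon length, and knockout 3, which stood apart by yolk sac and hepatoblast markers. A smaller tilt by exon length followed the number in other embryos. For all genes with under 2374 bp of exon, the median deviation was 0.083 in wild-type 2 and 0.11 in heterozygous 1. It was -0.15, -0.11 and -0.021 in wild-type 3, wild-type 4 and heterozygous 4, of number 4. Knockout 3 and knockout 2 had the other order, at -0.016 and 0.013. The part of exon length in the result was not tested. Yolk sac endoderm markers summed to 65.7 to 1375 CPM in number 18 and 46.2 to 55.4 CPM in number 4, and 4 of 8 rose. Hepatoblast markers summed to 112 to 3684 and 22.1 to 156 CPM, and 5 of 8 rose. Of the 8 neural progenitor markers 7 had a lower estimate in number 18 and 3 fell, with a median log2 fold change of -0.47, while their sums, 680 to 810 and 519 to 969 CPM, overlapped. Of the 8 heart muscle markers 5 had a lower estimate and 2 fell, with sums of 550.0 to 958 and 691 to 1246 CPM. Of the 10 neuronal markers 7 had a higher estimate and 2 rose, with sums of 837 to 1348 and 441 to 1191 CPM. The 10 erythroid markers all had a higher estimate but 0 passed the test, adjusted or not, with sums of 16770.4 to 73920.3 and 11858 to 46032 CPM. The part of these markers in the result was not tested. Without both wild-type 1 and knockout 3, 18 of the 38 genes passed the adjusted test, where 26.3% of all genes did. Number 18 then held only wild-type 2 and heterozygous 1, and knockout 2, the only knockout embryo left, added nothing to the contrast. Ddx3y was at 0.0 CPM in wild-type 2 and heterozygous 1, and at 75.1 and 56.1 CPM in wild-type 3 and 4. With so few embryos and sex uneven, the number of calls cannot be read as the effect of leaving those embryos out. The median in that fit was -0.25, and the log2 fold changes of Foxm1, Bub1b and Rrm2 were -0.38, -0.40 and -0.39.

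Other division genes were called in the comparison of title numbers. Of 40 further replication genes 4 fell in number 18 and 0 rose. Pole, the catalytic subunit of the leading-strand polymerase, had 83.1 ± 14 CPM in number 18 against 136 ± 17 CPM in number 4, a log2 fold change of -0.72 ± 0.11 SE (edgeR adjusted p = 0.0104). Mcm10, a replication initiation factor, had 76.4 ± 7.29 CPM in number 18 against 107 ± 14.7 CPM in number 4, a log2 fold change of -0.49 ± 0.11 SE (edgeR adjusted p = 0.0316). The others were Uhrf1 and Dnmt1, which copy DNA methylation onto new strands, at -0.50 ± 0.11 SE and -0.48 ± 0.11 SE. Of 42 further mitosis genes 3 fell and 0 rose. They were Espl1, the separase that cuts sister chromatids apart, with 68.3 ± 12.5 CPM in number 18 against 111 ± 11.5 CPM in number 4, a log2 fold change of -0.71 ± 0.11 SE (edgeR adjusted p = 0.0122), the kinase gene Nek2 and the condensin gene Ncapd2, at -0.45 ± 0.11 SE and -0.42 ± 0.11 SE.

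Of 21 brake genes of the cycle 5 rose in number 18 and 0 fell, 14 had a higher and 7 a lower estimate, and the median log2 fold change was 0.17. Cdkn1c had 392 ± 112 CPM in number 18 against 194 ± 15.4 CPM in number 4, a log2 fold change of 0.96 ± 0.19 SE (edgeR adjusted p = 0.0235). The others were the Cdk inhibitor genes Cdkn2c and Cdkn2d, the stress response gene Gadd45b and Ccng2, a cyclin of arrested cells, at 1.01 ± 0.21 SE, 0.69 ± 0.18 SE, 0.88 ± 0.20 SE and 0.45 ± 0.11 SE. Of 13 further G1 and S phase entry genes 3 fell and 0 rose, namely Cdk6, E2f3 and the repressor E2f7, at -0.72 ± 0.18 SE, -0.63 ± 0.14 SE and -0.57 ± 0.13 SE. The repressor E2f7 was listed with the entry genes and the repressor E2f5 with the brakes. The counts of both lists depend on that placement. Over all genes tested 4.75% rose and 3.1% fell in number 18.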

How the data were processed

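RNA from 12 whole mouse embryos was sequenced. Per the file headers, the authors' deposited table holds expected counts without normalization, beside each gene's exon length in bp. It was made by featureCounts 2.0.6 from the GRCm39 RefSeq annotation. Reads fitting several genes or places added fractions, each mate was counted alone, and strand was not used. Per the labels' protocols, 325 ng of RNA entered a strand-marking mRNA kit with spike-in RNA, which has 0 rows in the table. Per the submitters' processing notes, DRAGEN and Subread were used, with no role given.

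Counts were rounded, filtered by filterByExpr, scaled by TMM and fitted over all genes with edgeR 4.0.16 (R 4.3.3), robust quasi-likelihood, with all 12 embryos and a mean per genotype. Title numbers were compared in 8 embryos with genotype as a term. P-values were two-sided with Benjamini-Hochberg adjustment and a threshold of 0.05. Standard errors were derived from the log2 fold change and the F value, and medians over the 38 genes have no test. Log2 CPM used a prior count of 2, except in the heat map, which used none. The smallest mean chi-square per gene over 66 pairs of libraries was 16.4, where sampling noise gives 1, so each library was counted as 1 sample. The script was tested on simulated data.

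The 38 genes, the related lists and the markers were chosen with earlier results of these data known. Values by embryo were given for the 3 genes with the smallest p in each comparison and for the 2 most abundant per kb in each role group. Mcm2, Mki67, Cenpf and other values named were chosen after they were seen. Genes of related lists were named when past the adjusted threshold or among the 3 with the smallest p in knockout against wild-type. Alternatives were DESeq2 1.42.0, limma 3.58.1 voom with sample weights, other scalings and filters, Xist or title number as terms, only the compared groups, and embryos left out. The interaction test of genotype and title number, the deviations by exon length and the fit without wild-type 1 and knockout 3 were chosen after the data were seen.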

Additional observations from a re-analysis of the deposited data

Results flagged for a closer look

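In 9 of the 114 groups of 4 embryos (38 genes in 3 genotypes), the highest or lowest embryo stood far from the other 3, by Dixon's criterion at the 95% level. Chance alone gives about 1 in 20 such groups. Knockout 2 stood apart in 4 genes. It was high for Ccnd1 at 297 CPM (other knockout embryos 202 to 212 CPM), for Cdk4 at 1047 CPM (864 to 879.7 CPM) and for Cdc20 at 198 CPM (144 to 149.6 CPM), and low for Mki67 at 323 CPM (623 to 658 CPM). Knockout 4 was high for Gmnn at 105 CPM (81.3 to 85.1 CPM) and low for Ccnb2 at 71.8 CPM (90.1 to 93.7 CPM). Among wild-type embryos, replicate 3 was low for Cdt1 at 35.6 CPM (43.1 to 44.4 CPM) and replicate 1 high for Birc5 at 205 CPM (121 to 134 CPM). Heterozygous 1 was low for E2f1 at 32.8 CPM (45.2 to 47.3 CPM).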

How the results depend on the processing

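In the 3 genotype comparisons 0 of the 38 genes were called under every alternative run. The medians moved by less than 0.14, the SD between single embryos of 1 genotype of the median over the 38 genes. That SD is larger than the medians themselves (0.12, 0.053 and 0.037), so it cannot show that they were stable. In the comparisons with heterozygous embryos the sign of the median changed in some runs. Over all genes, knockout against wild-type gave 0 calls, 122 in DESeq2, 2 with title number as a block, 19 without the libraries labelled heterozygous 2 and knockout 3, and 0 to 1 with single embryos left out. Knockout against heterozygous gave 0, with 74 in DESeq2, 33 without those 2 libraries and 0 to 1 with single embryos left out. Heterozygous against wild-type gave 0, with 4 in DESeq2. The log2 fold change of Tyms in that comparison, -0.26, became 0.010 in limma voom, and the cause was not tested.

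For title number 18 against 4, 0 of the 38 genes were called, 5 in DESeq2, 20 in limma voom, 1 with no count filter, 18 without wild-type 1 and knockout 3, and 0 to 8 with any 1 embryo left out. Over all genes 1688 were called, 3840 in DESeq2, 7332 in limma voom, 1093 with library totals, 2559 with no count filter, 288 with Xist as a covariate and 964 with all 12 embryos. Without wild-type 1 and knockout 3 there were 5907, and with single embryos left out 210 to 3910. Leaving out heterozygous 2 with knockout 3 was not a separate fit here, since heterozygous 2 has another number. Where knockout 2 or 3 is left out, the other is the only knockout embryo and adds nothing to the contrast. The same holds for heterozygous 1 and 4, the only heterozygous embryos of these numbers. Without both wild-type 1 and knockout 3, number 18 is left with wild-type 2 and heterozygous 1, and knockout 2 adds nothing. The causes of the other changes were not tested. The number of embryos, 4 in each group, limits precision more than depth does. Replicate numbers follow the order of deposition and pair no embryos.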
